A study of Mus musculus with 6 samples.

Results

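Hepatoblasts of the mouse fetal liver at embryonic day 13.5 (E13.5) were read from 1 section of 5 µm in which single RNA molecules had been decoded by imaging with probes for 5050 genes. A segmented cell counted as a hepatoblast if it held at least 5 transcripts summed over a list of hepatocyte-lineage genes and none of C1qa, C1qb and C1qc, the subunit genes of complement C1q that mark macrophages in this tissue. Of the 9 genes on that list only Afp, Apoa1 and Prox1 were probed. Alb, Ttr, Serpina10, Ambp, Hpx and Gc were not on the panel, so the label rests on 3 genes. The rule chose 1566 of the 5285 cells of the section, a share of 29.6% with an exact binomial interval of 28.4% to 30.9%. The study holds 521938 cells in 6 sections.

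The liver came from a wild-type C57BL/6 embryo of mice from the Jackson Laboratory, with no treatment or transgene named, and was fixed in formalin and embedded in paraffin. The study mapped the niches of red cell formation in fetal liver, bone marrow and spleen, and of its imaged sections 1 per condition was used here. No second E13.5 section was analyzed here, so no value has a replicate check. Cells of 1 section are not replicates, hence no p-value is given, and every interval covers counting error only, at 95% confidence. No cell identifier of this section occurred in any of the other 5.

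Hepatoblasts are the epithelial progenitors of the liver and give rise to hepatocytes and to bile duct cells. Before birth the same organ is the main site of blood formation, so hepatoblasts lie among erythroblasts, macrophages, sinusoidal endothelium and stroma. They secrete Afp, the fetal counterpart of albumin, together with apolipoproteins, clotting factors and complement proteins, under the control of transcription factors such as Hnf4a, Foxa and Cebpa.

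The genes that chose the cells behaved as a gradient and not as separate peaks. Afp gave a median of 8 transcripts per hepatoblast, with a lowest value of 1 and a highest of 119, and Apoa1, the main protein of high-density lipoprotein, gave a median of 3 and a highest of 42. Prox1, a homeobox regulator of liver outgrowth, was seen in 72 of the 1566 hepatoblasts and never above 2 transcripts. Thus, among the probed genes, Afp decided most memberships. Summed over the 3 genes, hepatoblasts had a median of 10 transcripts, with quartiles of 7 and 17, and the other 3719 cells a median of 0. Just inside the threshold lay 205 cells with 5 transcripts, and just outside it lay 251 cells with 4, all without C1q transcripts. Of the other cells, 45.0% held at least 1 transcript of these genes. The exclusion for C1q removed 149 of 1715 cells that otherwise passed.

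**Figure D1:**
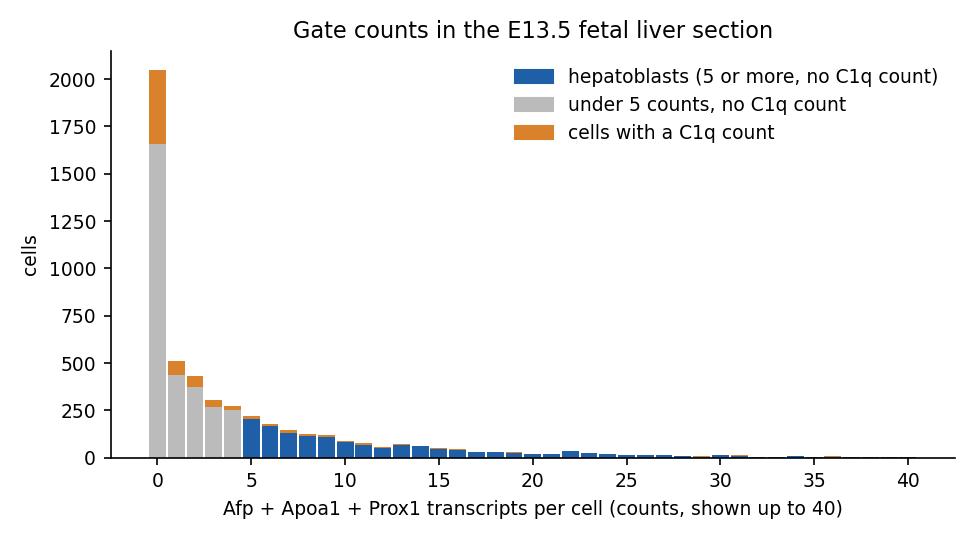
Number of cells (vertical axis) by their summed transcripts of Afp, Apoa1 and Prox1 (horizontal axis, shown up to 40) in the E13.5 section. Blue bars are the hepatoblasts from 5 transcripts on, gray bars the cells below that, and orange the cells with a C1q transcript; the numbers decline without a gap across the threshold, with 251 cells at 4 and 205 at 5.

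The rule used raw transcripts, so larger and richer outlines passed it more easily. Hepatoblasts held a median of 255.5 transcripts of 180 genes, and other cells 162 transcripts of 127 genes. Their median area was 49.7 µm² (quartiles 36.6 and 66.1) against 37.5 µm² (26.7 and 53.0), and the nucleus measured 25.5 µm² against 21.0 µm². Per area, hepatoblasts had a median of 5.52 transcripts per µm² and other cells 4.56. Outlines with 2 or more nuclei made up 4.79% of hepatoblasts (3.79% to 5.97%) and 1.67% of other cells (1.28% to 2.13%), and how many of these were joined neighbors was not tested. Outlines drawn on the boundary stain, which covers CD45 and the epithelial junction protein E-cadherin, were hepatoblasts in 46.3% of 752 cells, and those drawn on the stain of ribosomal RNA inside the cell in 27.2% of 4471. Within the boundary-stained outlines the median areas were 69.8 and 65.1 µm², and within the others 45.2 and 35.7 µm².

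To show the regulatory sequence in front of genes that mark these cells, the promoter windows of Afp and of Igfbp1, a leading gene outside the rule, were taken from RefSeq (GRCm38.p6), from 250 bases before to 50 bases after the gene's start. The letters GTTAAT, a motif of liver promoters, and CAAAGTCCA, a site of HNF4, were searched on both strands, and matches are printed in capitals. The Afp window, chr5:90490464-90490763 on the plus strand, held GTTAAT once, 105 bases before the start. The Igfbp1 window, chr11:7197537-7197836 on the plus strand, held its reverse complement once, 56 bases before the start.
Afp: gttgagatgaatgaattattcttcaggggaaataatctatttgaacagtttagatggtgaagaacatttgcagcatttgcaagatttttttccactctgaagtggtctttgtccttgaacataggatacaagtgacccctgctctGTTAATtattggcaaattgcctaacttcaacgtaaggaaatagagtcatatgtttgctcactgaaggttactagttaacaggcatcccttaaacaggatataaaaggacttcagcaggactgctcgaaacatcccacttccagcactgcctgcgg
Igfbp1: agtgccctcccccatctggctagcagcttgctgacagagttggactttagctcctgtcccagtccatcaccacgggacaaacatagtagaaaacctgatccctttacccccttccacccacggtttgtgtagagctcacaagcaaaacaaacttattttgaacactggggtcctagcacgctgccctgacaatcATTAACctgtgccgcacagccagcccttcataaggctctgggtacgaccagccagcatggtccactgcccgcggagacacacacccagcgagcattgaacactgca
Over the 199 genes that were at least 2-fold higher in hepatoblasts, 154 had windows, and 23 of these 211 windows (10.9%) held GTTAAT, compared with 246 of 4935 windows of all panel genes (4.98%) and 7.10% of all windows in the table. The HNF4 letters stood in 3 of the 211 windows (1.42%) and in 0.547% of the panel's windows. A match describes letters only.

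Next, gene levels in hepatoblasts were set against those of all other cells. Levels are CPM, the transcripts of a gene relative to 1000000 of all gene transcripts of the group, of which hepatoblasts held 522495 and other cells 862300. Of 3128 genes with at least 20 transcripts in the section, 199 (6.36%) were at least 2-fold higher in hepatoblasts and 584 (18.7%) were at most 0.5-fold. With transcripts per cell in place of CPM, the numbers were 375 and 366, without an excess of lower genes. The median gene had a log2 ratio of −0.17. The interval lay above 1 for 198 of the 199 and below 1 for 541 of the 584. Because the cells were chosen by their own transcripts, these ratios describe what accompanies Afp and Apoa1 and are not evidence of a separate cell type. Ratios of different genes can be set side by side, whereas their levels also depend on the probes.

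Genes of secretion and regulation led outside the rule. Igfbp1, a binding protein of insulin-like growth factors, gave 278 transcripts in hepatoblasts and 62 in other cells, or 532 against 71.9 CPM, a ratio of 7.40 (5.60 to 9.91). Onecut2, a transcription factor of liver and bile duct development, had 155 against 22.0 CPM and a ratio of 7.04 (4.23 to 12.3). Apob, the scaffold of very low-density lipoprotein, had 2681 against 404 CPM and a ratio of 6.64 (5.90 to 7.49). The intervals of Igfbp1, Onecut2 and Apob overlapped, so their order is not settled.

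The other leading genes were of the same kind in part. Hc, complement C5, had a ratio of 6.49, the fibrinogen chain gene Fga 6.31, the protease inhibitor Pzp 6.30, plasminogen (Plg) 6.17, A2m 6.11, the carboxypeptidase subunit Cpn1 6.01 and vitronectin (Vtn) 5.92. Sugar and lipid handling was represented by the hexokinase-related Hkdc1 at 6.23, Mlxipl, a glucose-responsive transcription factor, at 6.21, the lipid transfer protein Mttp at 5.56 and the glucose transporter Slc2a2 at 5.47. The endocytic receptor Ly75 had 5.80, and Smoc1, a matrix protein, had 5.40. Each of the 20 leading genes had a lower bound above 3.

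**Figure D2:**
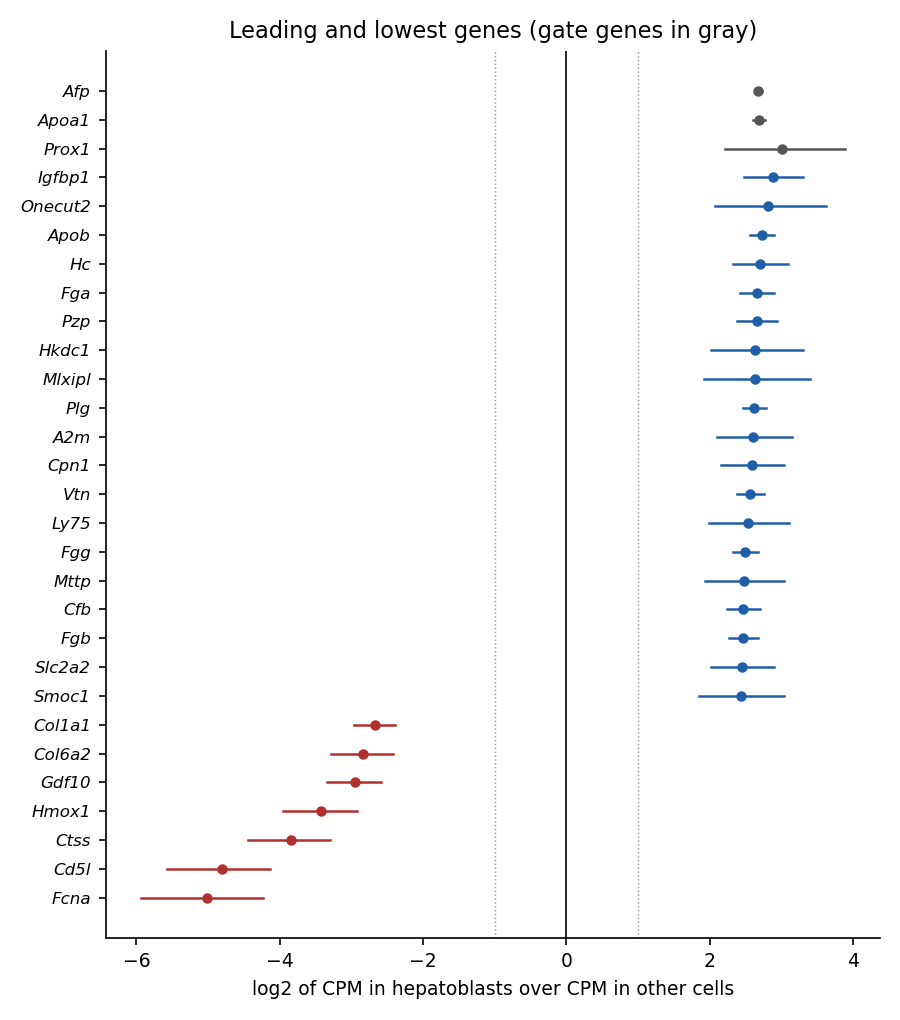
Log2 ratio of CPM in hepatoblasts over CPM in other cells (horizontal axis) for the genes of the rule (gray), 19 of the 20 highest genes outside it (blue) and 7 of the 10 lowest genes (red); C1qa, C1qb and C1qc, which the rule sets to 0, are left out. Bars are exact intervals of counting error and dotted lines mark 2-fold; the blue genes lie between 2.43 (Smoc1) and 2.89 (Igfbp1) and the red ones between −5.02 (Fcna) and −2.67 (Col1a1). The red genes Fcna, Cd5l, Ctss and Hmox1 were highest in C1q-positive cells, which the rule keeps out of the hepatoblasts.

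Genes were then grouped by role, and the counts of each list are to be read against the 6.36% of all genes tested that were higher and the 18.7% that were lower. Among carriers and inhibitors of the plasma, all 6 genes tested were at least 2-fold higher (6.36% of all genes), with a median log2 ratio of 2.49. Serpinf2, the plasmin inhibitor, had 3636 against 716 CPM, and Serpinc1, antithrombin, 1177 against 222 CPM. Agt, which encodes angiotensinogen, had a lower count, with 36 transcripts in hepatoblasts and 13 elsewhere. Orm1, an acute-phase carrier, gave no transcript in the section, and Hrg gave 2 in hepatoblasts and 2 elsewhere.

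In the lipoprotein list 7 of 9 genes tested were higher, with a median log2 ratio of 2.31. Apoa2, a second protein of high-density lipoprotein, had 19034 against 3646 CPM, a ratio of 5.22 (5.01 to 5.44). Apoe had a smaller ratio, 2.53, and in cells of the C1q-positive class it reached 5138 CPM against 5587 CPM in hepatoblasts. The receptors Scarb1 (1.28) and Lrp1 (0.581) were within 2-fold.

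All 5 coagulation genes tested were higher, with a median log2 ratio of 2.50. The fibrinogen chains gave close ratios, with 6.31 (5.37 to 7.44) for Fga, 5.54 (4.82 to 6.40) for Fgb and 5.65 (5.00 to 6.40) for Fgg. F9, factor IX, gave 6 transcripts in hepatoblasts and 2 elsewhere and was not tested. For complement, all 6 genes tested were higher, with a median log2 ratio of 2.42. C3 had 963 against 188 CPM, Cfb, factor B, 1269 against 228 CPM, and C2 205 against 55.7 CPM. Apcs, serum amyloid P, had the highest ratio of all genes tested, 11.6, from 28 and 4 transcripts and with an interval of 4.04 to 45.3. Fewer than 20 transcripts in the section were seen for C4b, C4bp, C6 and Mbl2.

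These secreted-protein genes also served as a second view of the label, since none of them was in the rule. Of the 34 genes of the plasma, lipoprotein, coagulation and complement lists on the panel, hepatoblasts held a median of 11 transcripts and other cells 1. At least 5 were found in 1343 hepatoblasts, 85.8% (83.9% to 87.5%), and in 14.8% of other cells (13.7% to 16.0%), without adjustment for the greater depth of hepatoblasts. The share was 71.6% in the 730 hepatoblasts with 5 to 9 transcripts of the rule's genes and 24.3% in cells with 1 to 4, so the separation was weakest at the threshold. Only 9 hepatoblasts had none, against 37.2% of other cells. Conversely, of the 1895 cells with at least 5 such transcripts, 70.9% were hepatoblasts. Of the markers given for the class, Alb and Serpina10 could not be checked.

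Of 16 transcription factors of the liver tested, 9 were at least 2-fold higher (6.36% of all genes) and 2 were lower (18.7% of all genes), with a median log2 ratio of 1.54. Hnf4a, a nuclear receptor central to hepatocyte identity, had 279 transcripts in hepatoblasts and 141 elsewhere, or 534 against 164 CPM, and a ratio of 3.27 (2.66 to 4.03). Atf5 had 1411 against 474 CPM and Cebpa 285 against 101 CPM. Ratios were 4.79 for Foxa2, 3.71 for Foxa1, 3.14 for Onecut1 and 3.67 for the xenobiotic receptor Nr1i2, each from fewer than 60 transcripts in the section. Gata4 was lower, with 101 against 267 CPM, as was Nr1h4, the bile acid receptor, with 17.2 against 51.0 CPM. Hhex, an early liver regulator, was within 2-fold at 1.19 (0.811 to 1.72). Among nuclear receptors of the mature liver, Nr1i3 gave no transcript in the section.

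Enzymes of amino acid and glucose metabolism were for the most part higher. Of 10 tested, 9 were higher and none was lower, with a median log2 ratio of 1.96. Bhmt, which remethylates homocysteine, had 674 against 139 CPM, and Gys2, liver glycogen synthase, 392 against 87.0 CPM. In the urea cycle, Otc had a ratio of 3.36 and Arg1 3.15, whereas Cps1 gave only 5 transcripts in hepatoblasts. G6pc, the last step of glucose release, gave none.

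Genes of bile acid and drug metabolism showed less of a difference. Gjb1, a gap junction protein of hepatocytes, had 232 against 42.9 CPM and a ratio of 5.40 (3.71 to 8.03), and Acsl1, a fatty acid activating enzyme, 2.22. The other 5 genes tested were within 2-fold, with Cat, catalase, at 1.13 among them. Cyp2e1 was not seen in the section, Cyp1a2 gave 1 and Cyp2c29 no transcript in hepatoblasts, and Cyp7a1, the rate-limiting enzyme of bile acid synthesis, gave 4.

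Fetal growth genes were abundant but not confined to hepatoblasts. H19, an imprinted noncoding RNA, had 29145 against 15599 CPM, a ratio of 1.87 (1.83 to 1.91), and Igf2, a fetal growth factor, 9547 against 7308 CPM, a ratio of 1.31. Gpc3, a cell surface proteoglycan, had a ratio of 1.53. Cells classed as stellate and stroma by their markers held more Igf2 (15611 CPM) and Gpc3 (4013 CPM) than hepatoblasts and less H19 (23936 CPM). Met, the receptor of hepatocyte growth factor, was higher at 3.93 (2.51 to 6.29), and its ligand gene Hgf was lower at 0.224. Lgr5 had 2.41 from 32 transcripts in the section. Dlk1, a common hepatoblast surface marker, gave 5 transcripts in hepatoblasts and 16 in other cells. In all, 2 of 11 genes of this list were higher (6.36% of all genes) and 1, Hmga2, was lower (18.7% of all genes).

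Genes of epithelia and bile duct followed. Cdh1, encoding E-cadherin, had 302 against 69.6 CPM (ratio 4.35, 3.21 to 5.95), Cldn1 had a ratio of 4.66 and Ocln 3.12. Tjp1, a scaffold of tight junctions, had 143.5 against 233.1 CPM, a ratio of 0.616 (0.466 to 0.807). Sox9, a regulator of bile duct fate, had 3.30 (1.33 to 8.91) from 24 transcripts in the section. Epcam gave 8 and 13 transcripts, and Sox4 was lower at 0.251. Thus 4 of 7 genes tested in the list were higher (6.36% of all genes) and 1 was lower (18.7% of all genes), and the summed level of the list had a ratio of 1.09 (0.964 to 1.24).

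Among 9 factors that act on blood cells none was at least 2-fold higher, where 6.36% of all genes were, so the count sets the list apart in no way. Of these, Igf1 (0.058), Jag1 (0.253) and Hgf were lower. For Igf1, the study reports a higher level in C1q-positive macrophages than in other macrophages. The rule keeps cells with C1q transcripts out of the hepatoblasts but not out of the other cells. Kitl, the ligand of the receptor Kit, had 245 against 153 CPM, a ratio of 1.60 (1.25 to 2.06), Fn1, fibronectin, 1.88 and Cxcl12 0.690. By class, Kitl was highest in endothelium (262 CPM), and Fn1 and Cxcl12 were highest in stroma (3252 and 1954 CPM). Epo, the hormone of red cell formation, gave 6 of its 7 transcripts in hepatoblasts, and Thpo, its counterpart for platelets, gave none of its single transcript there. Both were below the minimum. In iron handling, Slc40a1, the iron exporter, was lower with 264 against 906 CPM, and Hamp, which encodes the hormone that controls it, gave 3 transcripts in hepatoblasts and 1 elsewhere. Slc11a2 was within 2-fold at 0.856 and Hmox1 was lower at 0.094. Slc40a1 and Hmox1 were highest in the C1q-positive class, with 3963 and 3637 CPM, which the rule keeps out of the hepatoblasts. Without that exclusion the ratios were 0.524 for Slc40a1, within 2-fold, and 0.318 for Hmox1. Among the other classes Slc40a1 ran from 115 CPM in granulocytes over 265 in stroma and 295 in endothelium to 699 in the erythroid class.

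Among growth factor receptors, Fgfr4, a receptor of hepatocytes for fibroblast growth factors, had a ratio of 3.83 (2.28 to 6.63). It was 1 of 20 tested that was at least 2-fold higher, a share near the 6.36% of all genes. Lower receptors numbered 7 of 20, where 18.7% of all genes were lower, among them Egfr (0.163), Fgfr1 (0.267) and Notch1 (0.346). Igf2r (1.58), Lifr (1.41), Notch2 (1.09) and Tgfbr3 (0.559) were within 2-fold.

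None of 15 cell cycle genes differed by 2-fold, and their median log2 ratio was −0.08. Mki67 had 3751 against 5256 CPM, a ratio of 0.714 (0.677 to 0.753), Ccna2 0.873, Mcm2 0.970 and Pcna 0.990. Per cell, Mki67 averaged 1.25 transcripts in hepatoblasts and 1.22 in other cells. Ccnd1, cyclin D1, was the highest of the list at 1.63 (1.41 to 1.89).

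Transcripts of blood cells accompanied these profiles. Other cells were put in classes by marker lists or by C1q transcripts, as given with the contacts. The 10 erythroid genes on the panel summed to 37541 CPM in hepatoblasts and 53522 CPM in other cells, a ratio of 0.701, and none of the 10 differed by 2-fold or was at 0. Slc4a1, the anion exchanger of the red cell membrane, had 9474 CPM in hepatoblasts, 47075 CPM in cells classed as erythroid, and between 6853 and 12645 CPM in the other classes. Car2, carbonic anhydrase, had 15866 CPM in hepatoblasts and 51920 CPM in the erythroid class. Conversely, Apob had 2681 CPM in hepatoblasts, 313 CPM in the erythroid class, and between 48.8 CPM in stroma and 606 CPM in C1q-positive cells in the other classes. The level of Slc4a1 in hepatoblasts was therefore within the range of the classes other than erythroid. Apart from the C1q-positive class, that range is limited by the class rule. Cells led by erythroid markers, Slc4a1 among them, went to the erythroid class unless they were hepatoblasts or C1q-positive.

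Of the 10 marker lists of other cell types, the summed level was at most 0.5-fold for 5, those of endothelium, stroma, megakaryocytes, mesothelium and macrophages. For endothelium, 9 of 12 genes were lower (summed ratio 0.400, 0.372 to 0.429), Cdh5 with 201 against 780 CPM. In the stellate and stroma list 9 of 10 were lower (0.310), Col1a2 with 524 against 2744 CPM and Col1a1 with 222 against 1411 CPM. Reln was the exception at 1.09 and was highest in the stromal class (2177 CPM), which was itself defined by markers that include Reln. Of the megakaryocyte genes, 3 of 6 were lower, with Ppbp at 0.282. The 3 mesothelial genes tested were all lower. Upk3b gave 0 transcripts in hepatoblasts and 58 elsewhere and Wt1 0 and 75, so with a floor of 3 transcripts for the group they were at least 11.7-fold and 15.1-fold lower. Macrophage genes are tied to the rule through C1q. Of the 12 tested, 10 were lower, and 5 of 14 on the panel were at 0, C1qa, C1qb and C1qc by construction. Fcna (0.031), Cd5l (0.036), Ctss (0.070), the growth factor gene Gdf10 (0.129) and Col6a2 (0.140) were among the 10 lowest genes with at least 500 transcripts. Of these, Fcna, Cd5l and Ctss were highest in the C1q-positive class, so they too are tied to the rule.

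A few blood progenitor genes did not follow this pattern. Mpo (0.984) and Prtn3 (0.928), of granulocyte precursors, were within 2-fold. Without adjustment for depth, they were detected in 6.13% and 2.43% of hepatoblasts and in 3.71% and 1.75% of other cells. In CPM without the rule's genes, Mpo went from 1454 in hepatoblasts with 5 to 9 transcripts of those genes over 1040 and 820 to 393 in those with at least 40. Elane, of the same cells, had a ratio of 2.10 (1.16 to 3.85), which turned to 0.606 when at least 10 transcripts of the rule's genes were required. Hlf, listed as a stem cell gene and also known as a factor of the liver clock, had 142 against 46.4 CPM and a ratio of 3.05 (2.05 to 4.60). Kit had a ratio of 1.74 (1.30 to 2.33). Mast cell and lymphoid genes were too rare for a comparison, with summed levels of 23.0 and 38.3 CPM in hepatoblasts.

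Because a deep cell shows more genes, shares of cells with a transcript were compared after thinning every cell to 100 transcripts, which left 1393 hepatoblasts and 2613 other cells. Cells with fewer transcripts, 173 hepatoblasts and 1106 others, were left out. The erythroid class had a median of 102 transcripts, so many of its cells are missing from the others here. Apoa2 was then seen in 77.1% of hepatoblasts (74.8% to 79.3%) and 23.2% of other cells, and Apob in 23.0% (20.9% to 25.3%) and 3.21%. Without thinning, the shares for Apob were 45.5% and 6.45%. Plg was seen in 26.3% against 4.25%, Igfbp1 in 5.03% against 0.651% and Hnf4a in 5.38% against 1.84%. H19 was seen in 89.3% against 63.6%. Slc4a1 was seen in 49.0% of hepatoblasts (46.3% to 51.6%) and 60.1% of other cells. Transcripts of Mki67 were found in 30.8% against 39.4%, although unthinned shares were 55.2% and 54.7%. Absence of a lowly expressed gene from a cell thus says little at this depth.

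Hepatoblasts varied widely among themselves. They were divided by transcripts of the rule's genes into 730 cells with 5 to 9, 514 with 10 to 19, 242 with 20 to 39 and 80 with at least 40. From the first to the last of these groups the median went from 198 to 704 transcripts per cell and from 43.5 to 83.4 µm² in area. Levels below are CPM without the rule's genes. Apob went from 1352 (1190 to 1530) over 2431 and 4070 to 6452 (5803 to 7153). The coagulation list went from 5188 to 24412 and the lipoprotein list from 17399 to 65820. Igfbp1 went from 209 to 1734, and the liver transcription factors from 2157 to 5862.

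Over the same groups the erythroid list went from 48698 (47702 to 49711) over 41805 and 31871 to 14297 (13323 to 15323). Slc4a1 went from 12447 to 3163 and Mki67 from 4834 to 2037, while the cell cycle list went from 17667 to 9847. H19 went from 22576 to 44428, and Igf2 from 7071 to 16710. The stem and progenitor list stayed between 569 and 625. As a share of their RNA, hepatoblasts near the threshold thus carried more erythroid and less liver RNA than those far above it. Depth differed between these groups, so a lower share does not mean fewer erythroid transcripts per cell. Cells with 0 transcripts of the rule's genes had 31.0 for Apob and 55678 for the erythroid list. Which part of this came from mixed outlines was not tested.

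**Figure D3:**
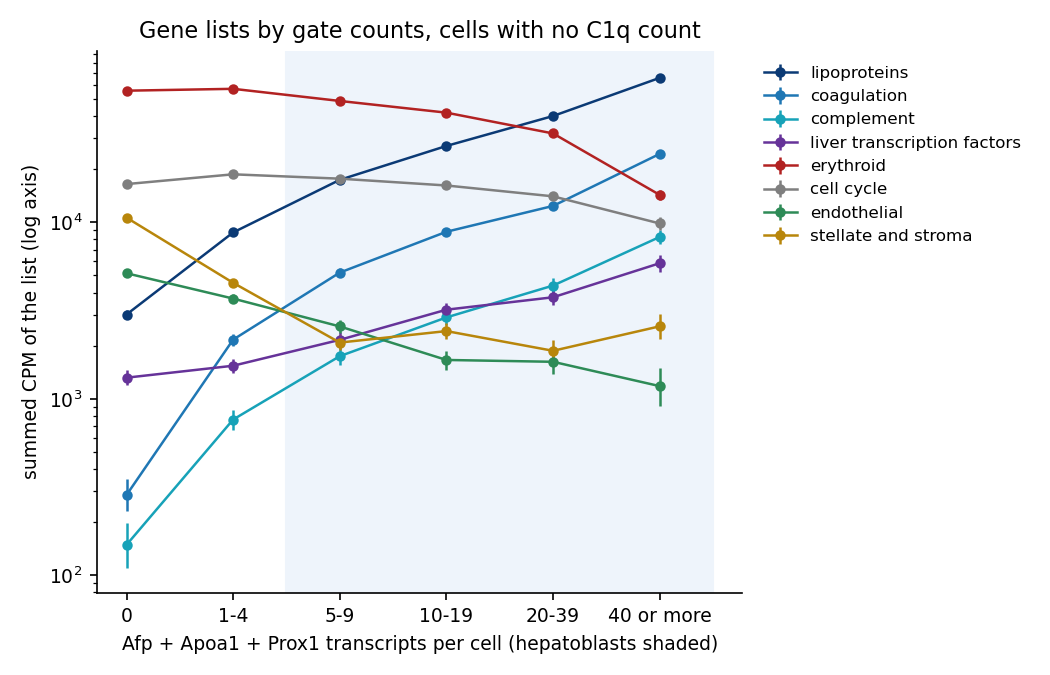
Summed CPM of 8 gene lists (log axis), without the genes of the rule, in cells without C1q transcripts, by transcripts of Afp, Apoa1 and Prox1 per cell (horizontal axis); the shaded groups are hepatoblasts and bars are exact Poisson intervals. Liver lists increase from left to right, coagulation from 5188 to 24412 within the hepatoblasts, and the erythroid list goes from 48698 to 14297.

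Of the 10 genes outside the rule with the highest variance over mean among hepatoblasts at equal depth, 6 were highest in the erythroid class. That class was itself defined by markers that include Slc4a1, Alas2 and Car2. After thinning, variance over mean was 2.51 for Slc4a1, 1.99 for Alas2, the first enzyme of erythroid heme synthesis, and 1.96 for Car2. H19 had 1.95 and Apoa2 1.89. The histone gene Hist2h2bb, the imprinted gene Mest, the nucleolar gene Npm1 and the glucose transporter Slc2a1 followed with 1.82, 1.78, 1.61 and 1.48. Mest was highest in the endothelial class. For Poisson counts the ratio would be 1, and for comparison Afp, which the rule used, had 2.19.

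The section consisted of separate pieces of tissue. Linking cells up to 30 µm apart gave 3 pieces of at least 100 cells, a division made after the positions were seen. The share of hepatoblasts was 31.8% of 3731 cells in the largest (30.3% to 33.3%), 21.0% of 1234 in the second (18.7% to 23.4%) and 41.8% of 170 in the smallest (34.3% to 49.6%). Stromal cells made up 6.89%, 11.7% and 4.12%. The ratio of Apob between hepatoblasts and other cells was 6.04, 7.85 and 13.5 in these pieces, and that of Igfbp1 6.28, 12.5 and 9.98. H19 had ratios of 1.84, 1.75 and 2.91 and Slc4a1 0.604, 0.672 and 0.522. Each of these genes differed in the same direction in the 3 pieces. In squares of 100 µm with at least 30 cells, the share of hepatoblasts ran from 0% to 53.7% with a median of 31.3% over 40 squares, and 1 square had none.

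**Figure D4:**
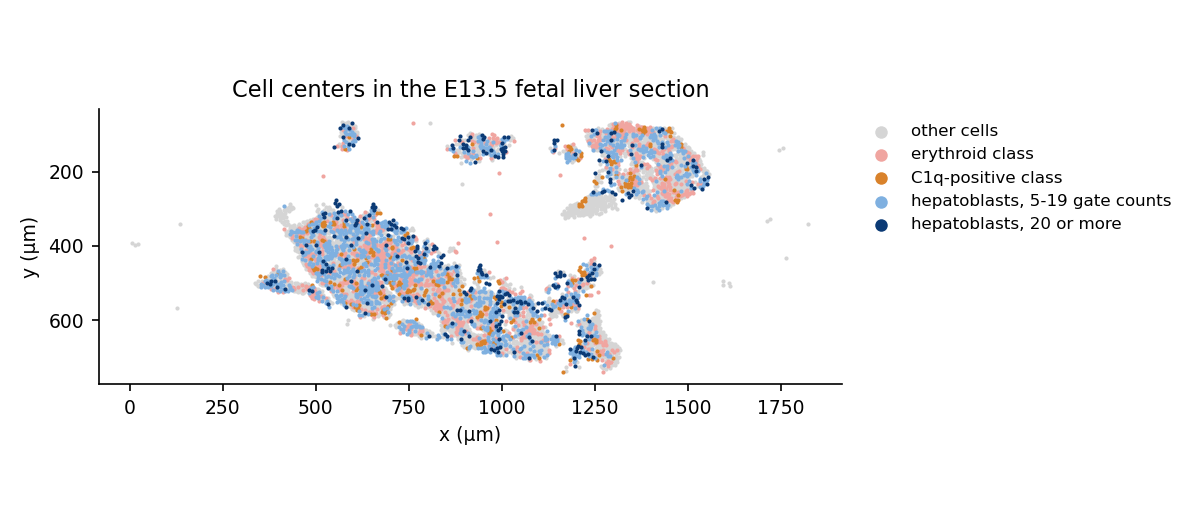
Position of all cell centers in the E13.5 section (both axes in µm). Light blue marks hepatoblasts with 5 to 19 transcripts of the rule's genes and dark blue those with 20 or more. The erythroid class is pink, the C1q-positive class orange and all other cells gray. Hepatoblasts are spread through every larger piece of tissue, and 1 gray area beside the upper right piece is nearly free of them.

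Hepatoblasts touched each other more often than an exchange of labels gives. Cells counted as touching where a Delaunay triangulation of their centers joined them by an edge of up to 400 µm. Hepatoblasts had 2287 contacts with one another and 1389.3 were expected, a log2 ratio of 0.72 (0.66 to 0.78). A hepatoblast had a mean of 2.92 ± 1.46 (SD over 1566 cells) such contacts out of 6.08, and 69 hepatoblasts (4.41%) had none. The distance to the nearest other hepatoblast had a median of 6.75 µm. Within 40 µm, 33.7% of the cells around a hepatoblast and 26.9% of those around another cell were hepatoblasts. With labels exchanged only within squares of 200 µm, which keeps the differences between regions, the log2 ratio was 0.64. The label itself rests on transcripts that varied with the neighbors. Hepatoblasts with no such contact had a median of 8 transcripts of the rule's genes, those with 4 or more contacts 13. Whether transcripts placed in a neighbor's outline made cells pass the rule was not tested.

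Contacts with most other classes were fewer than expected. Other cells with at least 3 transcripts of C1qa, C1qb and C1qc together formed the C1q-positive class. It held 301 cells, whereas 731 cells of the section had a C1q transcript. The remaining classes were given by the marker list with the highest observed over expected count in a cell, at least 2, with at least 3 transcripts. The macrophage list was not used for classes. Stellate and stromal cells had 322 contacts with hepatoblasts against 731.5 expected, a log2 ratio of −1.18 (−1.34 to −1.02). C1q-positive cells had 312 against 534.4, −0.77 (−0.94 to −0.61), and the 1073 cells of the erythroid class 1316 against 1905.1, −0.53 (−0.61 to −0.46). Endothelial cells had −0.21 (−0.35 to −0.08) and megakaryocytes −0.61. The granulocyte class, with 58 cells, was the only other one above expectation among the classes of at least 50 cells, to which contacts were limited, with 134 against 103.0 and a log2 ratio of 0.38 (0.12 to 0.62). Contacts of hepatoblasts with each other lower what remains for other classes. In addition, the rule removed cells with liver RNA and a C1q transcript from the hepatoblasts. Cells rich in erythroid or granulocyte markers counted as hepatoblasts if they held 5 or more transcripts of the rule's genes. In the granulocyte class, 69.0% of cells held a transcript of those genes. Whether this changed the granulocyte contacts was not tested.

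**Figure D5:**
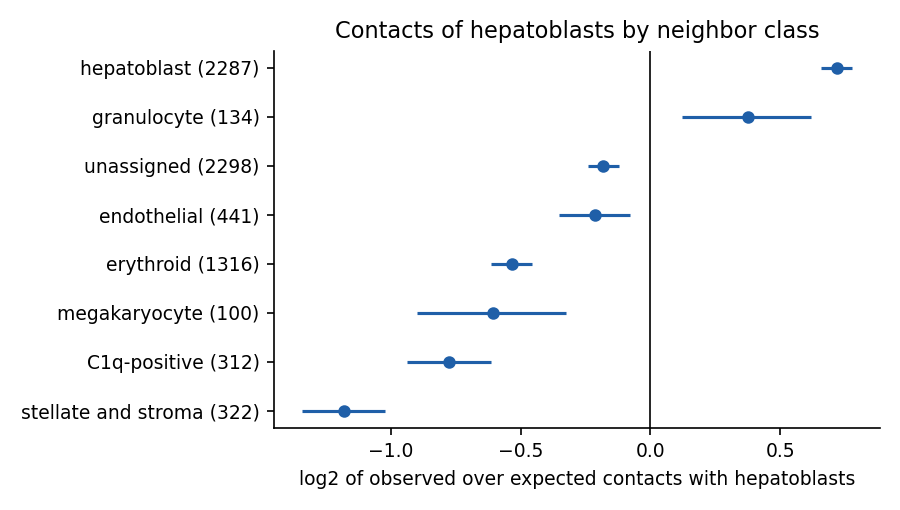
Log2 ratio of observed over expected Delaunay contacts of hepatoblasts (horizontal axis) with each class of neighbor, whose number of contacts is in parentheses; bars are exact Poisson intervals. Hepatoblasts with one another reach 0.72 and stellate and stromal cells −1.18.

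Liver RNA in other cells and erythroid RNA in hepatoblasts both varied with the neighbors. Both are given as CPM without the rule's genes. In other cells the secreted-protein lists summed to 5931 CPM without contact to a hepatoblast (5645 to 6229), 9607 with 1, 14076 with 2, 18987 with 3 and 15939 with 4 or more such contacts. In hepatoblasts the erythroid list summed to 30383 CPM with no erythroid-class contact (29709 to 31069), 43888 with 1 and 56682 with 2. With 3 contacts it was 55871 and with 4 or more 53485. The share of transcripts placed in a neighbor's outline was not tested. Against only those other cells without a hepatoblast contact, 176 of the 199 higher genes remained at least 2-fold higher, and against only those with 0 transcripts of the rule's genes, 189 did. The size of the ratios depended on this choice. For Apob the ratio was 23.5 against cells without contact and 103 against cells with 0 transcripts of the rule's genes, and for Igfbp1 it was 16.1 and 28.1.

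The same rule was applied to the E14.5 fetal liver section, also of wild-type origin, where the smaller panel of 477 genes held Serpina10, Ambp, Hpx, Gc and Prox1 of the 9 genes. It chose 39464 of 117329 cells (33.6%), by 5 genes of which only Prox1 was also probed at E13.5. The sections differ in panel, run, outline and rule, so the values stand side by side without a comparison. Of 109 genes with at least 20 transcripts in both, outside the rules, 5 were at least 2-fold higher in both sections. At E14.5, 10.9% of 477 genes were higher and 23.7% lower. The ratios at E13.5 and E14.5 were 7.40 and 3.32 for Igfbp1, 6.49 and 3.66 for Hc, 5.12 and 3.23 for C3, 5.87 and 3.55 for Ppargc1a, a coactivator of mitochondrial genes, and 3.30 and 2.42 for Sox9. Of the same 109 genes, 39 were at most 0.5-fold in both sections, 11 only at E13.5 and 5 only at E14.5. Higher in 1 section alone were 1 gene at E13.5 and 3 at E14.5, and 45 were within 2-fold in both. None was 2-fold higher in one and 2-fold lower in the other. Both rules left out cells with a C1q transcript, so macrophage genes such as Cd5l and Ctss were lower in both partly by construction.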

How the data were processed

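The authors deposited the counts of decoded transcripts for every gene and cell as the instrument's software gave them, without normalization, with cell positions and areas. Per the file headers that software was Xenium analysis version 3.1.0.4, whereas the methods name Space Ranger. In the E13.5 section, 1384795 gene transcripts lay in 5285 cells (median 190), and 40 negative control probes gave 4 transcripts. Of the other features without a gene, 21 genomic controls gave 34 transcripts and 609 negative control codewords 24. Another 8 deprecated codewords gave 414 and 7889 unassigned codewords 287. No cell was filtered out for low counts, doublets were not called, and transcripts of neighbors were not removed. Ratios are of CPM, over genes with at least 20 transcripts, with exact intervals conditional on the sum, and shares have exact binomial intervals. The calculation was tested on simulated data. Python 3.11.15, numpy 2.4.6, scipy 1.17.1 and pandas 2.3.3 were used.

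Named genes were those of the rule, the 20 highest outside it with at least 100 transcripts, the 10 lowest with at least 500, the 4 with most transcripts in hepatoblasts per list, the 10 with the highest variance over mean (mean at least 0.1), and, outside this rule, list members singled out after their values were seen. Some genes that meet this rule are not reported here. The members, lists and alternatives were chosen with earlier results of these data known. Alternatives covered the threshold of the rule, its genes, cell filters, the reference cells, scaling, thinning and contacts.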

Additional observations from a re-analysis of the deposited data

How the results depend on the processing

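The share of hepatoblasts follows the rule. It was 39.5% with at least 3 transcripts, 15.8% with at least 10, 7.06% without Afp, 32.5% without the exclusion for C1q, 34.8% among cells with at least 100 transcripts and 6.09% with at least 20, a setting chosen after the data had been seen. The counts of higher and lower genes were within 1.5 times of 199 and 584 under every change of the rule and of the reference cells, but the ratios were not as stable. Of 102 named genes, the ratio moved by over 1.5 times for 45 against other cells without a hepatoblast contact, for 40 against those with 0 transcripts of the rule's genes and for 21 without the exclusion for C1q. For Plg these ratios were 22.9, 42.7 and 9.56, beside 6.17. The counts of higher and lower genes were 375 and 366 with transcripts per cell in place of CPM. They were 465 and 1460 without a minimum and 313 and 884 at a ratio of 1.5. The lower genes numbered 387 with at least 50 transcripts and 336 at a ratio of 3. Of the 199 higher genes, 187 stayed higher with at least 10 transcripts of the rule's genes and 175 with the rule without Afp. Of the 41 secreted-protein and transcription factor genes tested, 32 were higher, and 33 to 35 under its 3 alternatives. With at least 10 transcripts, the summed ratio was 0.607 for erythroid, 0.347 for endothelial and 0.362 for stromal markers. Apob was seen in 14.6% of hepatoblasts thinned to 50 transcripts and 45.5% unthinned, and Slc4a1 in 35.0% and 65.8%. Contacts among hepatoblasts had a log2 ratio of 0.64 with exchange within squares and 1.07 with at least 10 transcripts, and their share within 30 µm was 34.7%. Elane turned to 0.606 with at least 10 transcripts, 0.131 without Afp and 0.148 with at least 20. Over all called genes, 1, 7 and 11 turned their direction under these settings, and Elane was the named gene among them. Prox1 alone, the only gene of the rule on both panels, never exceeded 2 transcripts in a cell, so that alternative gave no cells. No paired analysis was possible because each condition had 1 section. The causes were not tested. With a median of 190 transcripts over 5050 genes, single cells cannot show that a gene is absent.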

Other observations

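Of the 199 genes higher in hepatoblasts, 144 were on no list. The following were picked from these 144 after their values were seen, so they describe single genes and say nothing of any pathway. Glud1, glutamate dehydrogenase, had 2097 transcripts in hepatoblasts and 1048 in other cells, a ratio of 3.30. Msmo1, a sterol enzyme, had 245 and 91 transcripts and a ratio of 4.44. Klb, the coreceptor through which hepatocytes respond to the hormone Fgf21, had a ratio of 5.36 from 65 and 20 transcripts. Bdh1, an enzyme of ketone bodies, had 3.90, and Gldc, of glycine breakdown, 4.08. Epx, a granule peroxidase of eosinophils, had a ratio of 5.20 from 63 and 20 transcripts. Whether these lay in hepatoblasts or in blood cells that passed the rule was not tested, so Epx is not put forward as a hepatoblast gene.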
